A study of Mus musculus with 8 samples.

Results

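The ADAM and ADAMTS genes encode a family of metalloproteases and their non-catalytic relatives. Their levels were followed in mouse kidney cells selected with Dolichos biflorus agglutinin (DBA), a lectin that binds collecting duct epithelium. Members were all genes of the count table whose symbols read Adam, Adamts or Adamtsl followed by a number, with at least 10 counts in at least 2 libraries. Of 57 symbols that fit these name patterns, 37 met the minimum, out of 55304 genes in the table: 16 Adam, 16 Adamts and 5 Adamtsl genes. The other 20 stayed below it, and 13 of them had no counts in any library.

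The 8 polyA RNA libraries came from 4 groups of 2. Wild-type (WT) mice and mice labelled ADPKD, for autosomal dominant polycystic kidney disease, were each given DMSO alone or 666-15 in a dose of 5 mg/kg. The compound 666-15 blocks transcription driven by the factor CREB. All 4 groups shared the same schedule, a daily dose on 5 days followed by 2 days of rest, from postnatal day 11 and for 3 weeks. Which gene was altered in the ADPKD mice, in which cells and on which strain is not part of the labels. Nor is it stated whether the 2 libraries of each group represent different animals. By their sex, given below, the 2 WT inhibitor libraries do. The p-values therefore measure only the spread between the libraries, which in the other groups may be technical. The extraction text names both the lectin-selected cells and whole kidney. Below, the groups are called WT vehicle, WT inhibitor, ADPKD vehicle and ADPKD inhibitor.

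ADAM proteases sit in the cell membrane and release the outer parts of other membrane proteins, a step called shedding, which frees ligands of the EGF receptor and starts Notch signalling. ADAMTS proteases are secreted, carry thrombospondin repeats, and cut matrix proteins such as the proteoglycans versican and aggrecan, procollagens and von Willebrand factor. The ADAMTS-like proteins lack the protease domain, and several of them bind fibrillin microfibrils. CREB activates genes in response to cyclic AMP, a messenger known to drive fluid secretion and growth of cysts in ADPKD.

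Libraries held 15108793 to 19702638 counts assigned to genes. One library stood apart by sex: WT inhibitor replicate 2 had 17688 counts of the female transcript Xist and none of the Y-linked gene Ddx3y, whereas the other 7 had at most 8 counts of Xist and 1776 to 3722 of Ddx3y. Results are therefore given without this library where that ended a call. Markers of principal cells, the main collecting duct cells, made up 0.107% and 0.145% of counts in WT vehicle, 0.593% and 0.598% in WT inhibitor and 0.151% to 0.216% in the 4 ADPKD libraries, and every principal cell marker was detected. Markers of proximal tubule made up 0.896% and 0.913% in WT vehicle, 0.3065% and 0.360% in WT inhibitor and 0.0130% to 0.0204% in the 4 ADPKD libraries. With the inhibitor in WT, all 7 principal cell markers tested rose and 6 of 8 proximal tubule markers fell, against 13.9% and 11.6% of all genes. Intercalated cells are the acid-base cells of the collecting duct. Their markers fell in ADPKD on vehicle (7 of 7, against 27.6% of all genes). They rose with the inhibitor in ADPKD (7 of 7, against 22.3%) and in WT (6 of 7, against 13.9%). These markers moved with the genotype and inhibitor results below, and their part in them was not tested. In such bulk samples fewer cells of a type and less RNA per cell cannot be told apart.

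The member genes together took 0.147% to 0.249% of all counts. Values are CPM, the counts of a gene relative to the library total, scaled by the trimmed mean of M values (TMM). In their highest group, 6 members had a mean of at least 100 CPM, 11 lay between 10 and 100 CPM, 14 between 1 and 10 CPM, and 6 below 1 CPM. Per kilobase of exon, which allows levels of different genes to be compared, Adamts1 led in every group. In WT vehicle libraries its level was 262 ± 12.7 CPM per kb (SD, n = 2). Next came Adamts4 at 46.0 ± 4.17 and Adam9 at 41.1 ± 0.716 CPM per kb, followed by Adam10 at 20.7 ± 1.07 and Adamts9 at 11.3 ± 1.28 CPM per kb. In ADPKD vehicle libraries Adamts1 stood at 124 ± 12.5 CPM per kb. Behind it Adam10 (38.7 ± 1.98), Adam8 (37.5 ± 7.96), Adamts4 (36.0 ± 15.2) and Adam9 (34.6 ± 3.09 CPM per kb) did not differ beyond their spread. Adamts1 alone made up 60.9% and 59.9% of all member counts in WT vehicle, 40.9% and 38.2% in ADPKD vehicle, and 54.8% and 55.8% in ADPKD inhibitor libraries. In WT inhibitor libraries its share was 62.5% and 64.9%. This secreted protease was thus the largest single part of the member pool in all 4 groups, and a minority of it in ADPKD vehicle.

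**Figure D1:**
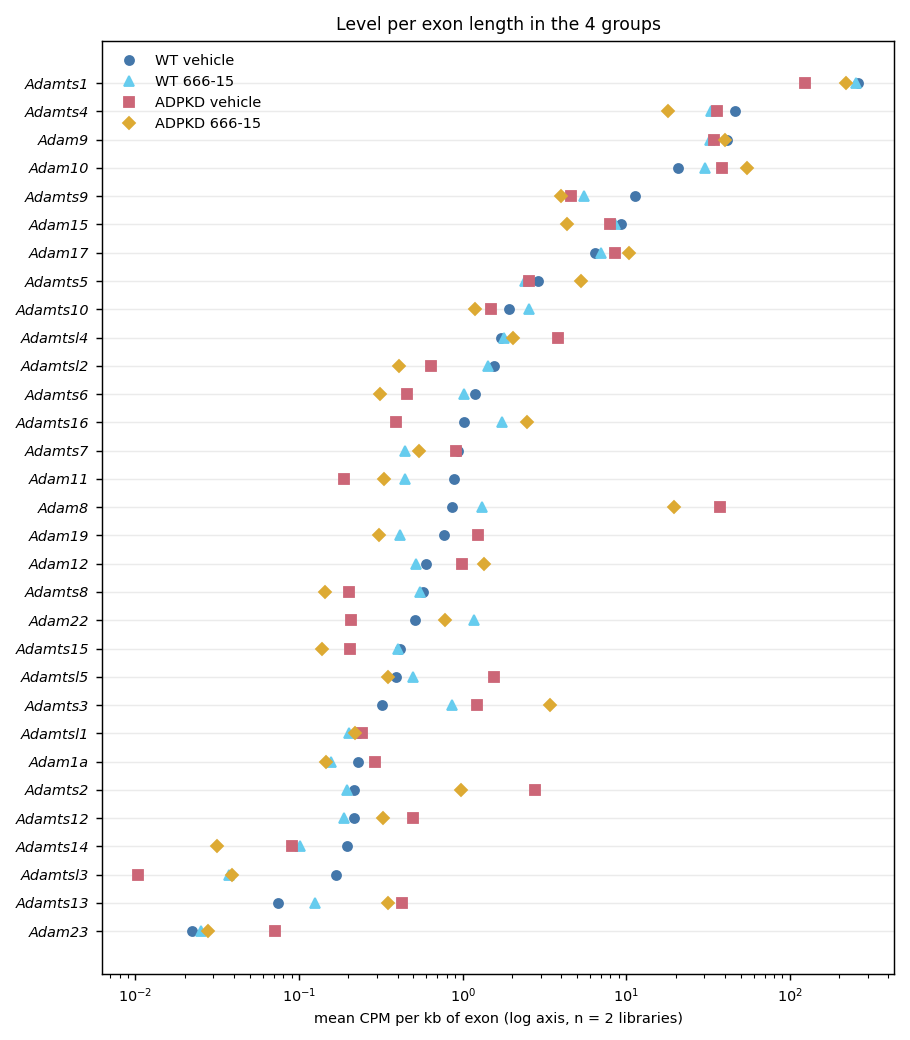
Mean level of each member with at least 1 CPM in its highest group, in CPM per kb of exon on a logarithmic axis, with 1 symbol per group (n = 2 libraries each). Adamts1 is the rightmost gene in all 4 groups, and Adam8 has the widest gap between the WT and ADPKD symbols among the abundant members.

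Because the treatment targets CREB, the RefSeq promoter windows (GRCm38.p6, 250 bases before to 50 after the start site) were searched for its cyclic AMP response element on both strands. Windows were given for 20 of the 37 members, 22 windows in all. The full element TGACGTCA was in 0 of these, against 1.79% of 32851 windows of all genes. The shorter motif TGACG, which the full element contains, was in 6 of the 22 (27.3%), those of Adam10, Adamts1, Adamts3, Adamts9, Adamts12 and Adamtsl3, against 20.8% of all windows. The 250 bases upstream of the start site are shown, 5′ to 3′ on the gene's strand, for 4 of the 20 members with a window: Adamts1 was the most abundant member, Adam10 and Adamts3 passed the test as higher with the inhibitor in both genotypes, and Adam8 had the largest rise in ADPKD on vehicle of the members tested. Capitals mark TGACG or its reverse complement. Adamts1 is at chr16:85803114-85803363 on the minus strand, with the motif's first base 170 bases upstream. Adam10 is at chr9:70678732-70678981 on the plus strand, with the motif on the opposite strand 67 bases upstream. Adamts3 is at chr5:89883335-89883584 on the minus strand, with the motif 225 bases upstream. Adam8 is at chr7:139992563-139992812 on the minus strand and has no capitals.
Adamts1: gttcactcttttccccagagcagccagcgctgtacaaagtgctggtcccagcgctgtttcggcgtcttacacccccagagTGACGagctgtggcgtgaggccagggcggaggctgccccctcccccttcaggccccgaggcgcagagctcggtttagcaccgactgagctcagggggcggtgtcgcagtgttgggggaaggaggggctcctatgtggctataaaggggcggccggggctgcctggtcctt
Adam10: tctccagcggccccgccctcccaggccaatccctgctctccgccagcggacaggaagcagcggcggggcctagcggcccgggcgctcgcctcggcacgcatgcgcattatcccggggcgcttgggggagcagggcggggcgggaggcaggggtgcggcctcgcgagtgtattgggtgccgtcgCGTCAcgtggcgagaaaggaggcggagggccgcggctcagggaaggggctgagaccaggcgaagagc
Adamts3: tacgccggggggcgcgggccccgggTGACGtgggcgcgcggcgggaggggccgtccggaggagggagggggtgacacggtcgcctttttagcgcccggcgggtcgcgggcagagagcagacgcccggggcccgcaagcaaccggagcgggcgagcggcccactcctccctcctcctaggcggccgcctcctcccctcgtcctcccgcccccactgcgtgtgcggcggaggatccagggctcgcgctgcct
Adam8: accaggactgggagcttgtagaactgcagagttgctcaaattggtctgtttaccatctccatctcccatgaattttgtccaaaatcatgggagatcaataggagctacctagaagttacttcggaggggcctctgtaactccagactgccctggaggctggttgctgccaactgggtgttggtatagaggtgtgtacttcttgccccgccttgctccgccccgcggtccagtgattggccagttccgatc
A match is a description of the letters and not a site of binding.

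Of the 35 members that could be tested, 21 (60.0%) differed between ADPKD and WT cells on vehicle, 10 of them higher and 11 lower in ADPKD, by edgeR's quasi-likelihood test at an adjusted p of 0.05. Among all 17440 genes tested, 56.4% differed, 28.8% higher and 27.6% lower, so the members' share lay near the background. Their libraries did not overlap between the genotypes for 27 members (77.1%), against 80.0% of all genes. The 10 that rose were Adam8, Adamts2, Adamts13, Adamtsl5, Adamts3, Adamts12, Adamtsl4, Adam10, Adam12 and Adam17. The 11 that fell were Adam7, Adamtsl3, Adam11, Adamts8, Adamts16, Adamts6, Adamts9, Adam22, Adamtsl2, Adamts1 and Adamts15. The median log2 difference was -0.18 over the members and 0.05 over all genes. The members moved in both directions.

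The inhibitor changed 14 of the 35 in ADPKD cells (40.0%), 8 higher and 6 lower, against 41.4% of all genes, 22.3% higher and 19.1% lower. Adam7, Adamts16, Adam22, Adamts3, Adamts5, Adamts1, Adam10 and Adam17 rose. Adamtsl5, Adam19, Adamts2, Adam8, Adamtsl4 and Adam15 fell. Vehicle and inhibitor libraries did not overlap for 24 members (68.6%), against 71.6% of all genes. In WT cells it changed 8 (22.9%), 4 in each direction, against 25.5% of all genes, 13.9% higher and 11.6% lower. Adamts3, Adam22, Adamts16 and Adam10 rose, and Adamtsl3, Adamts7, Adamts9 and Adam9 fell. The libraries did not overlap for 17 members (48.6%), against 64.1% of all genes. Fewer members rose without WT vehicle replicate 1, and fewer fell without any 1 of the 4 WT libraries. Over all genes, too, fewer rose and fewer fell in each of these fits, which leave 1 library in a group. In edgeR's fits without WT vehicle replicate 1 or 2, some members were still lower at an unadjusted p of 0.05. The share of all genes at that threshold was not computed, so this cannot be judged for the members. With all libraries DESeq2 gave 3 lower. The median log2 differences of the members were -0.32 in ADPKD and -0.07 in WT cells, against 0.02 and -0.01 over all genes.

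The response to the inhibitor differed between the genotypes for 10 of the 35 (28.6%), by the interaction term of the same model, against 26.6% of all genes. It was more positive in ADPKD for 7 (13.6% of all genes) and more negative for 3 (13.0% of all genes). The count of 7 was smaller without either WT vehicle library, ADPKD vehicle replicate 1 or either ADPKD inhibitor library. Over all genes, too, fewer passed as more positive in each of these fits, which leave 1 library in a group. With both genotypes on the inhibitor, 15 of the 35 differed (42.9%), 9 higher and 6 lower in ADPKD, against 46.3% of all genes, 21.8% higher and 24.5% lower. The libraries did not overlap for 21 members (60.0%), against 73.8% of all genes. Comparisons with a shared group are not independent of each other: ADPKD vehicle enters both the genotype difference on vehicle and the inhibitor response in ADPKD. In the following, differences are in log2 with their SE, n = 2 libraries a group, and every adjusted p is from edgeR. The SE was derived from edgeR's test, as the absolute log2 difference divided by the square root of its F value.

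**Figure D2:**
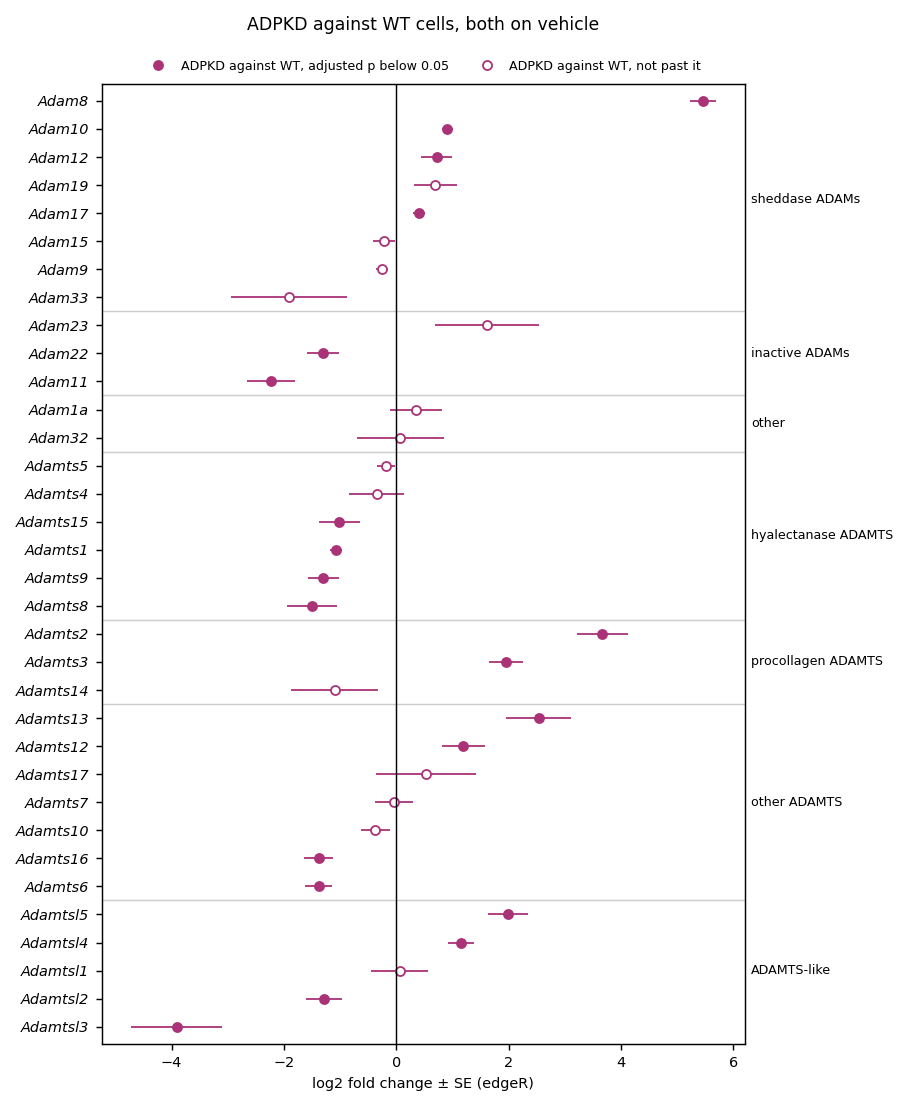
Difference of each tested member between ADPKD and WT cells on vehicle, in log2, grouped by role. Bars are 1 SE derived from edgeR's test, and filled points passed the adjusted p of 0.05. Adam7, which had no counts in ADPKD vehicle libraries, is left out. Adam8 stands farthest to the right and Adamtsl3 farthest to the left among the genes drawn.

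The 8 shedding ADAMs tested were Adam8, Adam9, Adam10, Adam12, Adam15, Adam17, Adam19 and Adam33. In ADPKD on vehicle 4 of them rose, against 28.8% of all genes, and the other 4 did not pass the test. Adam8 (chr7:139978932-139992562 in GRCm38), a protease known from leukocytes and inflamed epithelia, changed most of these. It stood at 3.09 and 4.90 CPM in WT vehicle, 5.37 and 6.89 in WT inhibitor, 148 and 199.8 in ADPKD vehicle and 89.3 and 91.6 in ADPKD inhibitor libraries. All 4 ADPKD libraries were far above all 4 WT libraries, and the vehicle libraries were above the inhibitor libraries within ADPKD. On vehicle the ADPKD level was 43.9-fold the WT level (log2 5.46 ± 0.23, adjusted p = 6.68e-09). The inhibitor lowered it in ADPKD (log2 -0.94 ± 0.18, adjusted p = 0.0016), whereas the difference in WT was 0.63 ± 0.25 (adjusted p = 0.0877). That WT difference passed the test with a block for replicates (0.63, adjusted p = 0.0213), without the filter on low counts (0.63, adjusted p = 0.00279) and without WT vehicle replicate 2 (0.98, adjusted p = 0.0205), and was 0.32 (adjusted p = 0.482) without WT vehicle replicate 1. These responses differed in the interaction test (log2 -1.58 ± 0.30, adjusted p = 0.00347). On the inhibitor the ADPKD level was still 14.7-fold that of WT (log2 3.88 ± 0.21, adjusted p = 1.98e-07).

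As macrophages also express Adam8, their markers were set beside it. The 10 macrophage markers together made up 0.0125% and 0.00915% of counts in WT vehicle, 0.0130% in each WT inhibitor library, 0.0251% and 0.0309% in ADPKD vehicle and 0.0194% and 0.0248% in ADPKD inhibitor libraries. No marker was at 0 in all libraries. In ADPKD on vehicle 8 of the 10 were higher and 1 lower, against 28.8% and 27.6% of all genes. The median log2 difference of the 10 was 3.09. The inhibitor raised 6 of the 10 in WT (median log2 2.05), against 13.9% of all genes. In ADPKD it raised 1 and lowered 2 (median log2 -0.45), against 22.3% and 19.1% of all genes. The sums weight each marker by its abundance, whereas the medians count each marker alike. The part of these cells in the Adam8 result was not tested. Adam8 shares 46 exon bases with a gene on the opposite strand, Gm16201, which had 1 to 9 counts.

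Adam10 (chr9:70678997-70780229), the protease that cuts Notch receptors and releases EGF and betacellulin, rose with both factors. It stood at 97.9 and 105 CPM in WT vehicle, 142 and 154 in WT inhibitor, 183 and 197 in ADPKD vehicle and 263 and 276 in ADPKD inhibitor libraries. The 4 groups did not overlap and rose in that order. It was higher in ADPKD on vehicle (log2 0.90 ± 0.10, adjusted p = 3.82e-06) and on the inhibitor (log2 0.86 ± 0.10, adjusted p = 1.15e-05). The inhibitor raised it in WT (log2 0.54 ± 0.10, adjusted p = 0.00102) and in ADPKD (log2 0.50 ± 0.09, adjusted p = 0.00104). The responses of the genotypes did not pass the test of their difference (-0.04 ± 0.13, adjusted p = 0.861). After removal of the trend of log2 difference with GC content, the response in ADPKD was 0.17 (adjusted p = 0.125), whereas that in WT kept its call. In ADPKD the inhibitor's log2 differences correlated with transcript GC across all 17223 genes with a value (Spearman -0.35) and across the 35 members (-0.42). These are correlations across genes of 2 groups of libraries, and genes are not independent replicates.

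Adam17 (chr12:21323509-21373632), which releases TNF, TGF-alpha and amphiregulin, moved less. It stood at 45.1 and 47.4 CPM in WT vehicle, 48.4 and 52.4 in WT inhibitor, 60.2 and 61.5 in ADPKD vehicle and 73.9 and 75.1 in ADPKD inhibitor libraries. The ADPKD libraries were above the WT libraries under each treatment. The difference on vehicle was 0.40 ± 0.11 (adjusted p = 0.00612), and it lost its call without WT vehicle replicate 1 (0.34, adjusted p = 0.0834). On the inhibitor it was 0.56 ± 0.11 (adjusted p = 0.000827). The inhibitor response in ADPKD was 0.29 ± 0.11 (adjusted p = 0.0406), a call lost without any 1 of the 4 libraries (adjusted p = 0.0808 to 0.149) and after removal of the GC trend (0.07, adjusted p = 0.614). In WT the response was 0.13 ± 0.11 (adjusted p = 0.427). Adam17 shares 311 exon bases with Iah1 on the opposite strand, which had 218 to 1540 counts. Without known strand use in the counting, their reads cannot be told apart there.

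Adam9 (chr8:24949611-25016927), a widely expressed sheddase, stood at 171 and 167 CPM in WT vehicle, 121 and 144 in WT inhibitor, 133 and 151 in ADPKD vehicle and 170.2 and 159.9 in ADPKD inhibitor libraries. The shifts were small, and the libraries of the genotypes did not overlap under either treatment. The genotype difference on vehicle was -0.25 ± 0.11 (adjusted p = 0.064). It passed the test with scaling by relative log expression (-0.29, adjusted p = 0.0374) and without the filter on low counts (-0.29, adjusted p = 0.0338). The same held after removal of the length trend (-0.27, adjusted p = 0.0366) and in a fit of the 2 groups alone (-0.33, adjusted p = 0.0122). Without ADPKD vehicle replicate 2 the value was -0.37. The inhibitor lowered Adam9 in WT (log2 -0.35 ± 0.11, adjusted p = 0.0311), a call lost without either vehicle library or inhibitor replicate 1 (adjusted p = 0.106 to 0.165), and its response in ADPKD was 0.21 ± 0.11 (adjusted p = 0.131). The interaction was 0.57 ± 0.15 (adjusted p = 0.0162), lost without WT vehicle replicate 1, ADPKD vehicle replicate 1 or ADPKD inhibitor replicate 1 (adjusted p = 0.0568, 0.0616 and 0.0684, log2 0.48 to 0.56). On the inhibitor Adam9 was higher in ADPKD (log2 0.31 ± 0.11, adjusted p = 0.0307), lost without WT inhibitor replicate 1 (0.19) or either ADPKD library (0.27 and 0.36, adjusted p = 0.0759 to 0.198).

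Adam15, found in epithelium and endothelium, stood at 60.4 and 54.2 CPM in WT vehicle, 65.9 and 39.5 in WT inhibitor, 47.8 and 50.6 in ADPKD vehicle and 25.1 and 28.1 in ADPKD inhibitor libraries. Its ADPKD inhibitor libraries were the lowest of all 8. The inhibitor lowered it in ADPKD (log2 -0.89 ± 0.20, adjusted p = 0.00515). Without ADPKD inhibitor replicate 1 the value was -0.79 (adjusted p = 0.0597), and after removal of the GC trend -0.48 (adjusted p = 0.0395). On the inhibitor it was lower in ADPKD (log2 -0.99 ± 0.20, adjusted p = 0.00229), with a log2 of -0.57 (adjusted p = 0.00645) without WT inhibitor replicate 1. On vehicle the difference was -0.22 ± 0.20 (adjusted p = 0.362). The WT response was -0.12 ± 0.20 (adjusted p = 0.697), and the interaction was -0.76 ± 0.28 (adjusted p = 0.0684). This interaction passed the test without the filter on low counts (-0.73, adjusted p = 0.00205) and with DESeq2 (-0.71). It was -1.065 without the female library, -0.33 without WT inhibitor replicate 1 and -0.28 (adjusted p = 0.434) after removal of the GC trend. The summed endothelial markers, given with Vwf, were also lower with the inhibitor in ADPKD, and their part in the Adam15 result was not tested. Adam15 shares 1263 exon bases with 4731419I09Rik on the opposite strand, which had at most 22 counts.

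Adam12 and Adam19 are the meltrins alpha and beta, known from muscle, heart and stroma. Adam12 stood at 5.63 and 7.09 CPM in WT vehicle, 6.29 and 4.62 in WT inhibitor, 13.2 and 7.60 in ADPKD vehicle and 14.8 and 14.0 in ADPKD inhibitor libraries. On the inhibitor it was higher in ADPKD (log2 1.40 ± 0.28, adjusted p = 0.0013), with no overlap. On vehicle its difference of 0.72 ± 0.27 (adjusted p = 0.0404) was not stable: it was 0.25 (adjusted p = 0.484) without ADPKD vehicle replicate 1, 0.54 (adjusted p = 0.239) without WT vehicle replicate 1 and 0.86 (adjusted p = 0.0634) without WT vehicle replicate 2. Adam19 stood at 4.43 and 6.50 CPM in WT vehicle, 3.58 and 2.28 in WT inhibitor, 5.34 and 12.3 in ADPKD vehicle and 1.95 and 2.44 in ADPKD inhibitor libraries. The inhibitor lowered it in ADPKD (log2 -1.999 ± 0.42, adjusted p = 0.00267), with a log2 of -1.26 (adjusted p = 0.0262) without ADPKD vehicle replicate 2, the highest library. The WT response was -0.90 ± 0.41 (adjusted p = 0.14) and the genotype difference on vehicle 0.69 ± 0.38 (adjusted p = 0.146). Adam33, an airway and smooth muscle gene, had 0 to 16 counts and did not pass any test.

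**Figure D3:**
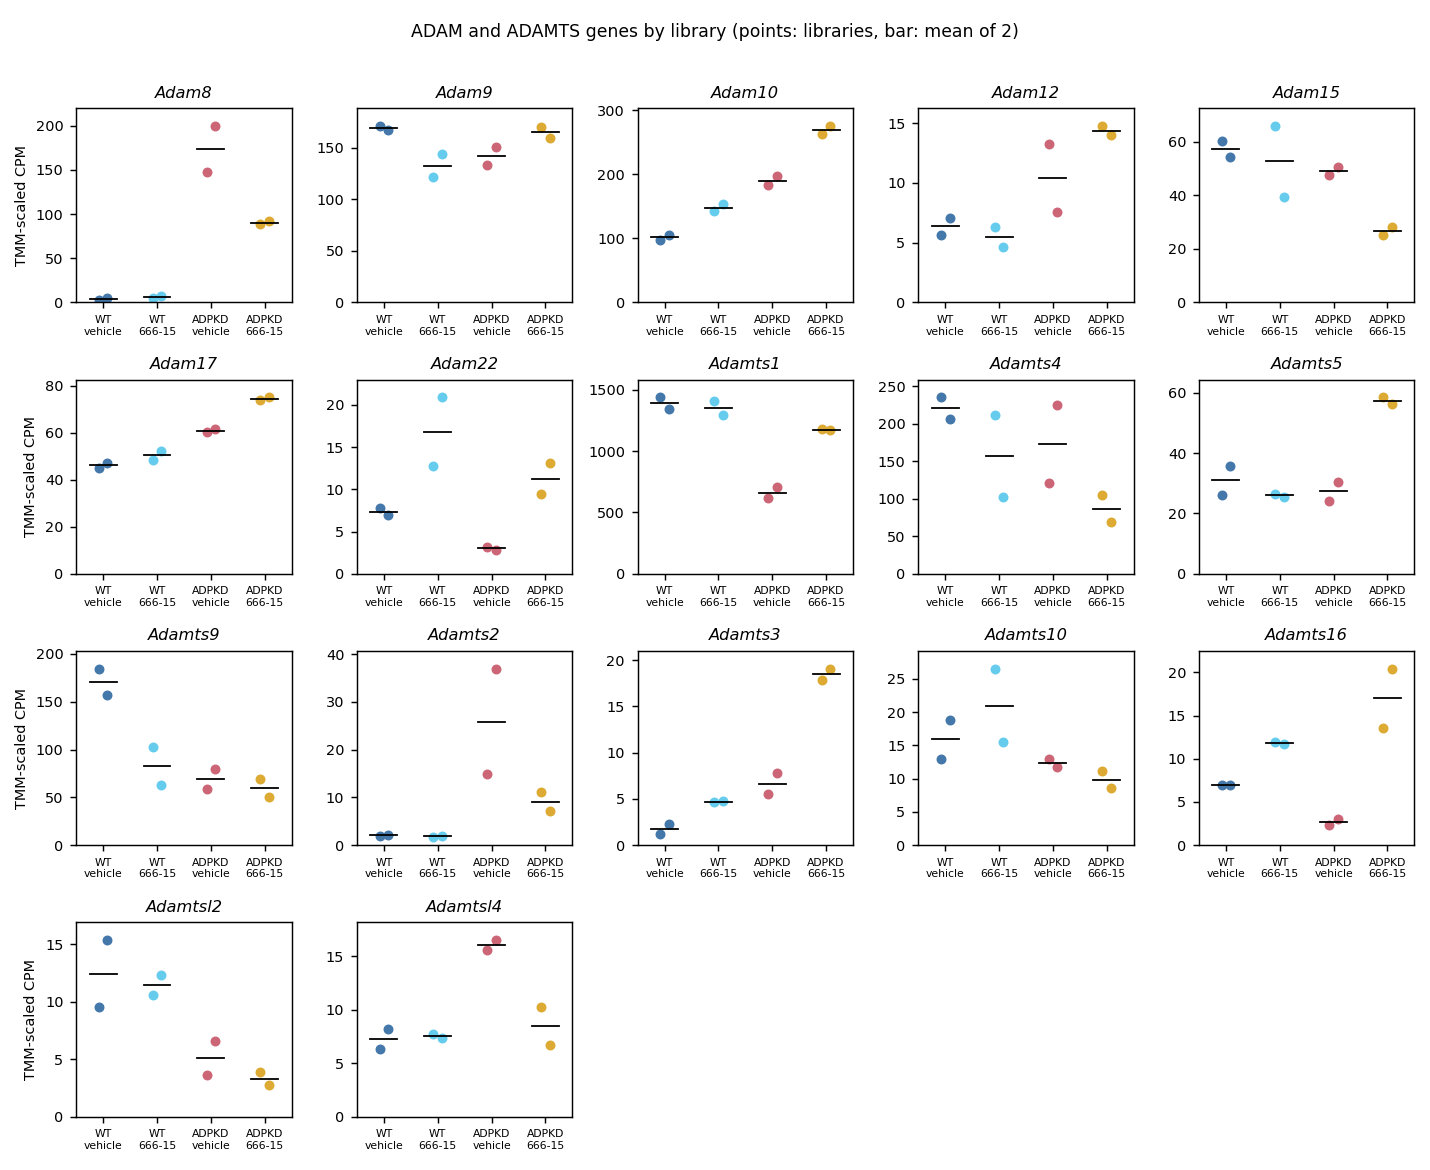
TMM-scaled CPM of the members with a group mean of at least 10 CPM, 1 panel per gene with its own axis from 0, points for libraries and a bar for the mean of the 2. Adam8 is near 0 in all 4 WT libraries, Adamts1 is lowest in the 2 ADPKD vehicle libraries, and Adamts5 is highest in the 2 ADPKD inhibitor libraries.

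Adam11, Adam22 and Adam23 encode ADAMs without protease activity, which bind LGI proteins at synapses. Adam22 (chr5:8072352-8368160) stood at 7.82 and 6.91 CPM in WT vehicle, 12.7 and 20.9 in WT inhibitor, 3.16 and 2.82 in ADPKD vehicle and 9.44 and 13.1 in ADPKD inhibitor libraries. On vehicle the ADPKD libraries were below both WT libraries (log2 -1.30 ± 0.29, adjusted p = 0.00174). The inhibitor raised it in ADPKD (log2 1.91 ± 0.28, adjusted p = 0.000206) with no overlap. In WT it rose (log2 1.19 ± 0.26, adjusted p = 0.00462), with a log2 of 0.78 (adjusted p = 0.0574) without the female library. The interaction was 0.72 ± 0.38 (adjusted p = 0.189), which passed the test only without the female library (1.14, adjusted p = 0.0346). On the inhibitor the genotype difference was -0.58 ± 0.26 (adjusted p = 0.0838).

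Adam11 stood at 3.54 and 6.56 CPM in WT vehicle, 2.78 and 2.28 in WT inhibitor, 0.778 and 1.36 in ADPKD vehicle and 1.63 and 2.104 in ADPKD inhibitor libraries. It was lower in ADPKD on vehicle (log2 -2.23 ± 0.43, adjusted p = 0.00063). Its interaction of 1.79 ± 0.61 (adjusted p = 0.0444) lost its call without WT vehicle replicate 2 (1.30), either WT inhibitor library (1.96 and 1.68), ADPKD vehicle replicate 1 (1.45) or either ADPKD inhibitor library (1.99 and 1.61), with adjusted p = 0.058 to 0.218. Adam23 had at most 31 counts, with 0 in WT vehicle replicate 2, and passed no test.

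The remaining ADAMs are best known from the male reproductive tract. Adam7, an epididymal gene, had 12 and 9 counts in WT vehicle, 6 and 11 in WT inhibitor, 0 and 0 in ADPKD vehicle and 5 and 5 in ADPKD inhibitor libraries. With 3 counts over the group as the floor for 0, it was at least 7.11-fold lower in ADPKD on vehicle (adjusted p = 0.0031). It was at least 4.18-fold higher with the inhibitor in ADPKD (adjusted p = 0.0162). That call and the interaction's (adjusted p = 0.0414) were lost without any 1 library of the groups compared (adjusted p = 0.0576 to 0.0664 and 0.0628 to 0.128). Adam1a had 13 to 54 counts and overlapped exons of Mapkapk5 and Tmem116. Adam32 had 5 to 11 counts. Neither passed a test, and Adam4 and Adam5, with at most 12 and 11 counts, were too low to be tested.

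The group of ADAMTS proteases that cuts versican and aggrecan had 6 tested members: Adamts1, Adamts4, Adamts5, Adamts8, Adamts9 and Adamts15. Of these, 4 fell in ADPKD on vehicle, against 27.6% of all genes, and the other 2 did not pass the test. With the inhibitor 2 rose in ADPKD, and 1 fell in WT, against 22.3% and 11.6% of all genes. Adamts1 (chr16:85793827-85803113), needed for kidney and ovarian development, stood at 1437 and 1342 CPM in WT vehicle, 1411 and 1292 in WT inhibitor, 613 and 707 in ADPKD vehicle and 1180.0 and 1168 in ADPKD inhibitor libraries. The 2 ADPKD vehicle libraries were the lowest of all 8, and the ADPKD inhibitor libraries lay between them and WT vehicle. Adamts1 was lower in ADPKD on vehicle (log2 -1.07 ± 0.10, adjusted p = 1.11e-06). The inhibitor raised it in ADPKD (log2 0.83 ± 0.10, adjusted p = 4.11e-05), with a difference of -0.04 ± 0.10 (adjusted p = 0.807) in WT. The interaction was 0.87 ± 0.14 (adjusted p = 0.000686). On the inhibitor the genotype difference was -0.20 ± 0.10 (adjusted p = 0.111).

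Adamts5 (chr16:85856173-85901828), the main aggrecanase of mouse cartilage, lies 53060 bases from Adamts1 on the same chromosome. It stood at 26.2 and 35.9 CPM in WT vehicle, 26.4 and 25.5 in WT inhibitor, 24.2 and 30.4 in ADPKD vehicle and 58.5 and 56.4 in ADPKD inhibitor libraries. The ADPKD inhibitor libraries were above the other 6, which overlapped. The inhibitor raised it in ADPKD (log2 1.07 ± 0.16, adjusted p = 0.000228), with -0.25 ± 0.16 (adjusted p = 0.287) in WT and an interaction of 1.33 ± 0.23 (adjusted p = 0.0012). On the inhibitor it was higher in ADPKD (log2 1.15 ± 0.16, adjusted p = 9.41e-05), and on vehicle the difference was -0.18 ± 0.16 (adjusted p = 0.361). The neighbours Adamts1 and Adamts5 thus both responded to the inhibitor in ADPKD, from different levels on vehicle.

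Adamts4, the other aggrecanase, stood at 235 and 207 CPM in WT vehicle, 212 and 103 in WT inhibitor, 121 and 225 in ADPKD vehicle and 105 and 69.0 in ADPKD inhibitor libraries. Replicates lay far apart in 3 of the 4 groups, and no comparison passed the test, with -0.35 ± 0.49 (adjusted p = 0.586) for genotype on vehicle and -0.996 ± 0.50 (adjusted p = 0.185) for the inhibitor in ADPKD. Without robust estimation of the spread the latter had an adjusted p = 0.0334. Adamts9 (chr6:92772699-92943492), which is widely expressed and kept near the cell surface, stood at 184 and 157 CPM in WT vehicle, 102 and 63.0 in WT inhibitor, 58.6 and 80.1 in ADPKD vehicle and 69.2 and 50.6 in ADPKD inhibitor libraries. Adamts9 was lower in ADPKD on vehicle (log2 -1.30 ± 0.27, adjusted p = 0.00586), with no overlap. In WT the inhibitor lowered it (log2 -1.05 ± 0.27, adjusted p = 0.032), a call lost without WT vehicle replicate 1 (-0.93) or 2 (-1.16) or WT inhibitor replicate 2 (-0.74, adjusted p = 0.0862 to 0.172). In ADPKD the response was -0.21 ± 0.28 (adjusted p = 0.585). The interaction was 0.84 ± 0.39 (adjusted p = 0.166). Adamts9 shares 1381 exon bases with A730049H05Rik on the opposite strand, which had 11 to 73 counts.

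Adamts8 and Adamts15 lie 20110 bases apart on chromosome 9, and both were low. Adamts8 stood at 2.59 and 2.72 CPM in WT vehicle, 3.05 and 2.02 in WT inhibitor, 0.830 and 1.03 in ADPKD vehicle and 0.846 and 0.475 in ADPKD inhibitor libraries. All 4 ADPKD libraries were below all 4 WT libraries. The difference was -1.50 ± 0.44 (adjusted p = 0.0108) on vehicle and -1.92 ± 0.48 (adjusted p = 0.00518) on the inhibitor. The first lost its call without WT vehicle replicate 2 (-1.49, adjusted p = 0.0505) or ADPKD vehicle replicate 1 (-1.36, adjusted p = 0.0529), and the second without ADPKD inhibitor replicate 2 (-1.58, adjusted p = 0.0588). Adamts15 stood at 4.33 and 4.19 CPM in WT vehicle, 4.57 and 3.73 in WT inhibitor, 1.45 and 2.77 in ADPKD vehicle and 1.30 and 1.56 in ADPKD inhibitor libraries, again with no overlap of the genotypes. Its differences were -1.01 ± 0.36 (adjusted p = 0.0287) on vehicle and -1.53 ± 0.39 (adjusted p = 0.00571) on the inhibitor. The first was lost without WT vehicle replicate 1 (-1.01) or 2 (-1.06) or ADPKD vehicle replicate 1 (-0.63, adjusted p = 0.0857 to 0.193), and was -1.57 (adjusted p = 0.00703) without ADPKD vehicle replicate 2. The second was lost without ADPKD inhibitor replicate 1 (-1.40, adjusted p = 0.059).

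**Figure D4:**
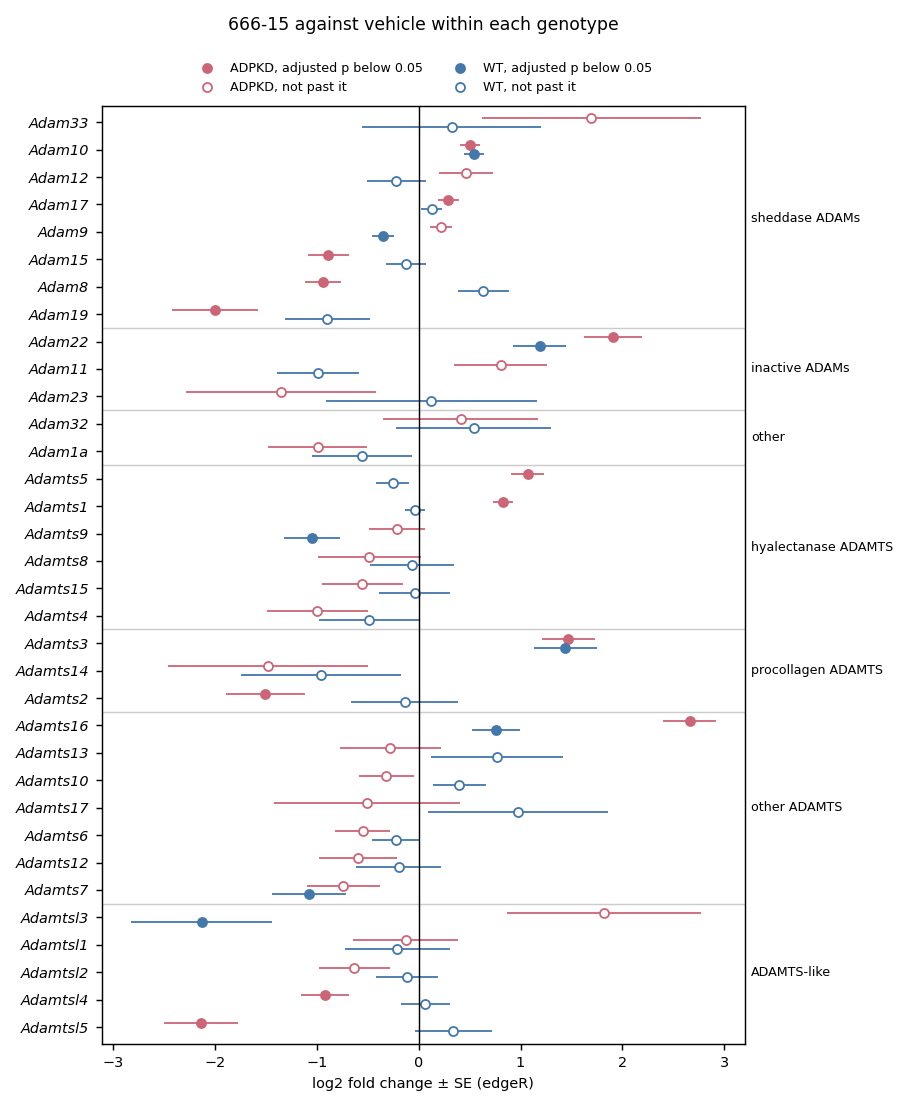
Difference of each tested member between 666-15 and vehicle, in log2, in ADPKD and in WT cells, grouped by role. Bars are 1 SE derived from edgeR's test, filled points passed the adjusted p of 0.05, and Adam7 is left out. Adamts16, Adam22 and Adamts3 lie to the right in both genotypes, and Adamts1 and Adamts5 lie to the right in ADPKD alone among the calls.

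Adamts2, Adamts3 and Adamts14 encode procollagen N-proteinases, which trim fibrillar procollagens, and Adamts3 also activates the lymphatic growth factor VEGF-C. Adamts3 (chr5:89677087-89883334) stood at 1.25 and 2.25 CPM in WT vehicle, 4.64 and 4.75 in WT inhibitor, 5.50 and 7.82 in ADPKD vehicle and 17.8 and 19.1 in ADPKD inhibitor libraries. The groups rose in the order WT vehicle, WT inhibitor, ADPKD vehicle and ADPKD inhibitor, with no overlap. It was higher in ADPKD on vehicle (log2 1.94 ± 0.30, adjusted p = 0.000119) and on the inhibitor (log2 1.97 ± 0.27, adjusted p = 7.29e-05). The inhibitor raised it in ADPKD (log2 1.47 ± 0.26, adjusted p = 0.000731) and in WT (log2 1.44 ± 0.31, adjusted p = 0.00424). The WT value was 1.06 (adjusted p = 0.0713) without WT vehicle replicate 1, and the interaction was 0.03 ± 0.45 (adjusted p = 0.973).

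Adamts2 (chr11:50602084-50807573), whose loss causes fragile skin, stood at 1.94 and 2.13 CPM in WT vehicle, 1.72 and 1.96 in WT inhibitor, 14.8 and 37.0 in ADPKD vehicle and 11.1 and 7.13 in ADPKD inhibitor libraries. All 4 ADPKD libraries were above all 4 WT libraries, and the 2 ADPKD vehicle libraries lay far apart. Adamts2 was higher in ADPKD on vehicle (log2 3.67 ± 0.45, adjusted p = 7.86e-05) and on the inhibitor (log2 2.30 ± 0.47, adjusted p = 0.00307). The second lost its call without either WT inhibitor library (2.21 and 2.41, adjusted p = 0.0534 to 0.0703). The inhibitor lowered it in ADPKD (log2 -1.51 ± 0.39, adjusted p = 0.0125). That call was lost without ADPKD vehicle replicate 2 (-0.69, adjusted p = 0.0931) or ADPKD inhibitor replicate 2 (-1.22, adjusted p = 0.101). In WT the response was -0.14 ± 0.52 (adjusted p = 0.879), and the interaction was -1.37 ± 0.65 (adjusted p = 0.16). Adamts14 had 1 to 22 counts and passed no test.

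Fibroblasts express Adamts2, so stromal markers were summed. The 10 markers made up 0.0224% and 0.0179% of counts in WT vehicle, 0.0180% and 0.0121% in WT inhibitor, 0.0366% and 0.0636% in ADPKD vehicle and 0.0322% and 0.0315% in ADPKD inhibitor libraries. None was at 0 in all libraries. On vehicle 7 of the 10 were higher in ADPKD, against 28.8% of all genes. The inhibitor lowered 4 of the 10 in ADPKD, against 19.1% of all genes. ADPKD vehicle replicate 2 was the highest library both for this sum and for Adamts2, and also for Adam19. The part of stromal cells in these results was not tested.

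Of the 7 other ADAMTS genes tested, 2 rose and 2 fell in ADPKD on vehicle, against 28.8% and 27.6% of all genes. Adamts16 (chr13:70727802-70841811), linked to blood pressure in rats, had the largest rise with the inhibitor in ADPKD of the ADAMTS genes tested. It stood at 7.02 and 6.97 CPM in WT vehicle, 12.0 and 11.7 in WT inhibitor, 2.33 and 3.04 in ADPKD vehicle and 13.6 and 20.4 in ADPKD inhibitor libraries. The 2 ADPKD vehicle libraries were the lowest of all 8, and both inhibitor groups were above both vehicle groups. It was lower in ADPKD on vehicle (log2 -1.38 ± 0.26, adjusted p = 0.000538). The inhibitor raised it in ADPKD (log2 2.66 ± 0.26, adjusted p = 9.04e-06), a 6.32-fold rise. In WT it rose (log2 0.76 ± 0.24, adjusted p = 0.0317), a call lost without any 1 of the 4 libraries (log2 0.74 to 0.77, adjusted p = 0.0698 to 0.152). The response was larger in ADPKD (log2 1.90 ± 0.35, adjusted p = 0.00163), and on the inhibitor the genotype difference was 0.52 ± 0.23 (adjusted p = 0.0807).

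Adamts6 and Adamts10 encode proteases of fibrillin-rich matrix. Adamts6 stood at 8.47 and 10.1 CPM in WT vehicle, 8.28 and 7.59 in WT inhibitor, 3.79 and 3.31 in ADPKD vehicle and 2.47 and 2.38 in ADPKD inhibitor libraries. All 4 ADPKD libraries were below all 4 WT libraries. It was lower in ADPKD on vehicle (log2 -1.38 ± 0.25, adjusted p = 0.000353) and on the inhibitor (log2 -1.71 ± 0.26, adjusted p = 0.000175), and the inhibitor response in ADPKD was -0.55 ± 0.27 (adjusted p = 0.124). Adamts10 stood at 13.0 and 18.8 CPM in WT vehicle, 26.5 and 15.4 in WT inhibitor, 12.9 and 11.7 in ADPKD vehicle and 11.1 and 8.55 in ADPKD inhibitor libraries. On the inhibitor it was lower in ADPKD (log2 -1.09 ± 0.27, adjusted p = 0.00645), lost without WT inhibitor replicate 1 (-0.65, adjusted p = 0.0626) or ADPKD inhibitor replicate 2 (-0.91, adjusted p = 0.0691).

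Adamts13, which cuts von Willebrand factor, stood at 0.199 and 0.532 CPM in WT vehicle, 0.530 and 0.696 in WT inhibitor, 1.82 and 2.39 in ADPKD vehicle and 1.43 and 2.04 in ADPKD inhibitor libraries. ADPKD libraries had more of it on vehicle (log2 2.53 ± 0.58, adjusted p = 0.00232), with all 4 ADPKD libraries above all 4 WT libraries. On the inhibitor the difference was 1.49 ± 0.56 (adjusted p = 0.0463), lost without any 1 of the 4 libraries (log2 1.21 to 1.72, adjusted p = 0.0734 to 0.221). Adamts12 and Adamts7 cut cartilage oligomeric matrix protein. Adamts12 stood at 2.14 and 2.60 CPM in WT vehicle, 1.39 and 2.72 in WT inhibitor, 4.05 and 6.79 in ADPKD vehicle and 4.17 and 2.99 in ADPKD inhibitor libraries and was higher in ADPKD on vehicle (log2 1.19 ± 0.39, adjusted p = 0.0185), lost without WT vehicle replicate 1 (1.04) or 2 (1.31) or ADPKD vehicle replicate 2 (0.75, adjusted p = 0.0561 to 0.171). Adamts7 stood at 6.77 and 4.96 CPM in WT vehicle, 3.11 and 2.47 in WT inhibitor, 3.73 and 7.71 in ADPKD vehicle and 3.58 and 3.26 in ADPKD inhibitor libraries and fell with the inhibitor in WT (log2 -1.07 ± 0.36, adjusted p = 0.0464), lost without any 1 of the 4 libraries (log2 -1.28 to -0.83, adjusted p = 0.0632 to 0.286). It shares 122 exon bases with Tbc1d2b on the opposite strand, which had 257 to 617 counts. Without known strand use, their reads cannot be told apart there. Adamts17 had 3 to 15 counts and passed no test.

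Of the 5 ADAMTS-like genes, 2 rose and 2 fell in ADPKD on vehicle, against 28.8% and 27.6% of all genes. Adamtsl5 (chr10:80339110-80348412), a fibrillin-binding protein, stood at 1.69 and 2.01 CPM in WT vehicle, 2.58 and 2.09 in WT inhibitor, 7.88 and 6.73 in ADPKD vehicle and 2.21 and 1.09 in ADPKD inhibitor libraries. Only the ADPKD vehicle libraries were high, and the ADPKD inhibitor libraries overlapped with WT. It was higher in ADPKD on vehicle (log2 1.98 ± 0.36, adjusted p = 0.00039), and the inhibitor lowered it there (log2 -2.14 ± 0.37, adjusted p = 0.000572). In WT the response was 0.34 ± 0.38 (adjusted p = 0.561), with an interaction of -2.48 ± 0.53 (adjusted p = 0.0043). On the inhibitor the genotype difference was -0.49 ± 0.39 (adjusted p = 0.325).

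Adamtsl4, mutated in families with displaced lenses, showed a similar order of groups. It stood at 6.33 and 8.15 CPM in WT vehicle, 7.75 and 7.34 in WT inhibitor, 15.6 and 16.5 in ADPKD vehicle and 10.2 and 6.72 in ADPKD inhibitor libraries. On vehicle its level was higher in ADPKD (log2 1.15 ± 0.23, adjusted p = 0.000912). The inhibitor lowered it in ADPKD (log2 -0.92 ± 0.23, adjusted p = 0.00671), with -0.64 (adjusted p = 0.0989) without ADPKD inhibitor replicate 2 and -0.37 (adjusted p = 0.22) after removal of the GC trend. Its interaction of -0.98 ± 0.33 (adjusted p = 0.045) lost its call without each library other than ADPKD inhibitor replicate 1 (log2 -1.16 to -0.70, adjusted p = 0.0568 to 0.193).

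Adamtsl2, which lies 69751 bases from Adamts13 and is mutated in geleophysic dysplasia, moved the other way. It stood at 9.51 and 15.4 CPM in WT vehicle, 10.5 and 12.3 in WT inhibitor, 3.63 and 6.57 in ADPKD vehicle and 3.84 and 2.71 in ADPKD inhibitor libraries. It was lower in ADPKD on vehicle (log2 -1.28 ± 0.32, adjusted p = 0.00413), with -0.92 (adjusted p = 0.056) without WT vehicle replicate 2, and on the inhibitor (log2 -1.80 ± 0.34, adjusted p = 0.000921). Adamtsl3 was low throughout, at 1.25 and 1.36 CPM in WT vehicle, 0.265 and 0.316 in WT inhibitor, 0.0519 and 0.109 in ADPKD vehicle and 0.260 and 0.339 in ADPKD inhibitor libraries. WT vehicle stood above the other 3 groups. It was lower in ADPKD on vehicle (log2 -3.91 ± 0.81, adjusted p = 0.00115). The inhibitor lowered it in WT (log2 -2.13 ± 0.69, adjusted p = 0.0387), lost without any 1 of the 4 libraries (log2 -2.27 to -2.02, adjusted p = 0.144 to 0.234). The interaction was 3.95 ± 1.18 (adjusted p = 0.0262), lost without each library other than ADPKD vehicle replicate 2 (log2 3.54 to 4.14, adjusted p = 0.0512 to 0.114). Adamtsl1 had 24 to 91 counts and passed no test.

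The proteins that hold these proteases in check were examined next. TIMPs are secreted inhibitors of metalloproteases, and Reck is a membrane-bound one. Of 4 tested, 2 rose and 1 fell in ADPKD on vehicle, where 28.8% of all genes were higher and 27.6% lower. Timp1 stood at 4.43 and 2.66 CPM in WT vehicle, 3.78 and 3.16 in WT inhibitor, 56.9 and 85.5 in ADPKD vehicle and 7.68 and 6.31 in ADPKD inhibitor libraries, with the ADPKD vehicle libraries far above the other 6. It was higher in ADPKD on vehicle (log2 4.31 ± 0.27, adjusted p = 9.25e-08), and the inhibitor lowered it there (log2 -3.35 ± 0.25, adjusted p = 4.08e-06), with an interaction of -3.30 ± 0.39 (adjusted p = 0.000146). Timp2 stood at 82.2 and 78.6 CPM in WT vehicle, 181 and 131 in WT inhibitor, 254 and 257 in ADPKD vehicle and 244 and 223 in ADPKD inhibitor libraries. On vehicle Timp2 was higher in ADPKD (log2 1.67 ± 0.13, adjusted p = 3.73e-07), and it rose with the inhibitor in WT (log2 0.95 ± 0.13, adjusted p = 0.000199), with an interaction of -1.08 ± 0.18 (adjusted p = 0.00115). Timp3, the TIMP that binds matrix and inhibits Adam17 and the aggrecanases, stood at 1100.0 and 1139 CPM in WT vehicle, 863 and 821 in WT inhibitor, 501 and 576 in ADPKD vehicle and 567 and 502 in ADPKD inhibitor libraries. Timp3 was lower in ADPKD on vehicle (log2 -1.06 ± 0.10, adjusted p = 1.61e-06), with all 4 ADPKD libraries below all 4 WT libraries. In WT the inhibitor lowered it (log2 -0.41 ± 0.10, adjusted p = 0.0092), with a log2 of -0.39 (adjusted p = 0.0646) without WT vehicle replicate 2. Reck rose with the inhibitor in ADPKD (log2 0.95 ± 0.25, adjusted p = 0.00948), with 0.76 (adjusted p = 0.066) without ADPKD vehicle replicate 1 and 0.87 (adjusted p = 0.0726) without ADPKD inhibitor replicate 1.

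**Figure D5:**
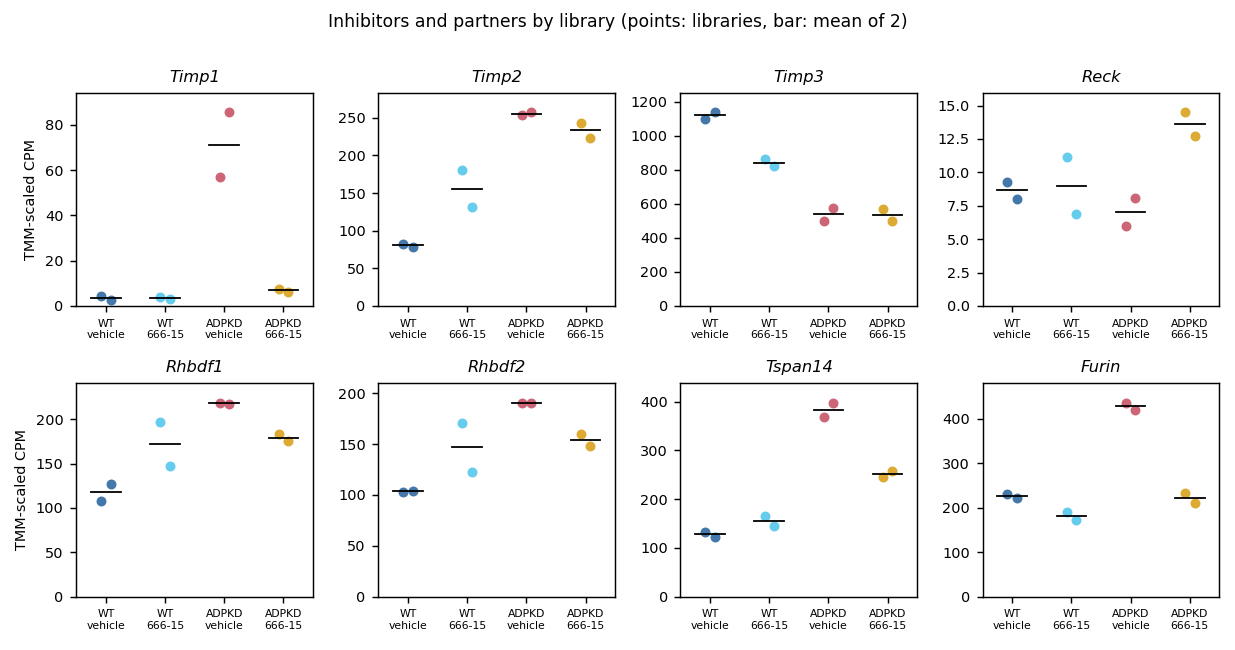
TMM-scaled CPM of 4 inhibitors and 4 partners of the proteases, 1 panel per gene with its own axis from 0, points for libraries and a bar for the mean of the 2. Timp1 is high only in ADPKD vehicle libraries, Timp3 is lower in all 4 ADPKD libraries than in all 4 WT libraries, and Tspan14 is highest in ADPKD vehicle libraries.

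To reach the surface Adam17 needs the iRhoms (Rhbdf1, Rhbdf2) and Frmd8, and Adam10 needs tetraspanins such as Tspan5, Tspan14 and Tspan15. Of 8 such partners tested, 6 rose and 1 fell in ADPKD on vehicle, against the same 28.8% and 27.6% of all genes. Tspan14 stood at 134 and 123 CPM in WT vehicle, 166 and 144 in WT inhibitor, 368 and 398 in ADPKD vehicle and 246 and 258 in ADPKD inhibitor libraries. It was higher in ADPKD on vehicle (log2 1.58 ± 0.10, adjusted p = 4.21e-08), the inhibitor lowered it there (log2 -0.60 ± 0.10, adjusted p = 0.000452), and the interaction was -0.88 ± 0.14 (adjusted p = 0.00076). Rhbdf1 rose in ADPKD on vehicle (log2 0.89 ± 0.13, adjusted p = 7.49e-05), as did Rhbdf2 (log2 0.88 ± 0.13, adjusted p = 9.86e-05) and Frmd8 (log2 1.07 ± 0.16, adjusted p = 7.05e-05). With the inhibitor in ADPKD 2 of the 8 fell and 0 rose, against 19.1% and 22.3% of all genes: Tspan14 and Frmd8 (log2 -0.47 ± 0.15, adjusted p = 0.0258). The call of Frmd8 was lost without any 1 of the 4 libraries (adjusted p = 0.0608 to 0.147) and after removal of the GC trend (-0.16, adjusted p = 0.37). With the inhibitor in WT 3 of the 8 rose and 1 fell, against 13.9% and 11.6% of all genes. Tspan15 (log2 0.83 ± 0.12, adjusted p = 0.000319), Rhbdf1 (0.55 ± 0.13, adjusted p = 0.00764) and Rhbdf2 (0.50 ± 0.13, adjusted p = 0.014) rose. The last 2 were at 0.33 and 0.24 without WT inhibitor replicate 1. In ADPKD these 3 did not pass the test (-0.26, -0.28 and -0.31). By the interaction, 5 of the 8 partners responded more negatively in ADPKD than in WT, against 13.0% of all genes, and 2 did so after removal of the GC trend. Furin, which removes the prodomains of ADAM and ADAMTS proteases, stood at 230.3 and 222 CPM in WT vehicle, 191 and 173 in WT inhibitor, 436 and 420.1 in ADPKD vehicle and 232 and 211 in ADPKD inhibitor libraries. On vehicle its level was higher in ADPKD (log2 0.92 ± 0.10, adjusted p = 3.13e-06), and the inhibitor lowered it there (log2 -0.95 ± 0.10, adjusted p = 1.22e-05).

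Of 8 shed ligands of the EGF receptor family, 4 rose and 2 fell in ADPKD on vehicle. Fewer fell without WT vehicle replicate 2 or ADPKD vehicle replicate 1. Egf, which Adam10 releases and which is also a marker of the thick ascending limb, fell (log2 -9.15 ± 0.20, adjusted p = 2.35e-11). The 5 markers of that segment, Egf among them and none at 0 in all libraries, made up 0.673% and 0.663% of counts in WT vehicle, 0.299% and 0.392% in WT inhibitor, 0.0320% and 0.0327% in ADPKD vehicle and 0.0307% and 0.0387% in ADPKD inhibitor libraries. On vehicle 4 of the 5 were lower in ADPKD, with a median log2 difference of -4.24, and the part of these cells in the Egf result was not tested. Tgfa, which Adam17 releases, rose (log2 2.30 ± 0.11, adjusted p = 3.01e-09). Btc, also a target of Adam10, rose with the inhibitor in ADPKD (log2 2.51 ± 0.18, adjusted p = 1.21e-06) and in WT (log2 2.77 ± 0.18, adjusted p = 7.44e-07). Of 25 other shed membrane proteins, 16 rose and 4 fell in ADPKD on vehicle. With the inhibitor in ADPKD 8 rose and 9 fell. Fewer fell without ADPKD inhibitor replicate 2, as was so over all genes. The background for these counts is that of all genes given above, 28.8% higher and 27.6% lower on vehicle and 22.3% and 19.1% for the inhibitor in ADPKD.

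Of 13 ADAMTS substrates tested, 8 rose in ADPKD on vehicle, against 28.8% of all genes, and fewer did without WT vehicle replicate 2. The median log2 difference was 1.43, against 0.05 over all genes. Col1a1, the main chain of type I collagen and a substrate of the procollagen proteinases, rose (log2 2.45 ± 0.25, adjusted p = 1.96e-05), as did Fbn1, a fibrillin gene (log2 1.46 ± 0.19, adjusted p = 5.35e-05). With the inhibitor in ADPKD, 5 of the 13 fell, against 19.1% of all genes. More fell without ADPKD vehicle replicate 1 and fewer without ADPKD inhibitor replicate 2. Vwf, the substrate of Adamts13 and an endothelial gene, fell (log2 -1.40 ± 0.26, adjusted p = 0.00112). The 10 endothelial markers, of which none was at 0 in all libraries, made up 0.116% and 0.145% of counts in ADPKD vehicle and 0.0409% and 0.0310% in ADPKD inhibitor libraries. All 10 passed the test as lower, against 19.1% of all genes. Col1a1 is itself a stromal marker. So are the substrates Col1a2 (log2 1.70 ± 0.29, adjusted p = 0.00208) and Col3a1 (log2 2.34 ± 0.27, adjusted p = 0.000134), which also rose in ADPKD on vehicle. The part of stromal and endothelial cells in these counts was not tested.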

How the data were processed

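PolyA RNA of DBA-selected kidney cells was measured in 8 libraries, 2 in each of 4 groups. The values are raw counts per gene, deposited by the authors as 1 table. Per the submitters' processing notes, HISAT2 2.1.0, featureCounts 1.6.0 and DESeq2 were used with the mm10 build. The annotation release, strand use and treatment of multimapped reads are not given in the sources used here. Columns were matched to samples by group and replicate number, the vehicle columns by elimination. No column belonged to another sample. An overlap of 1 member's exons with another gene is not reported here.

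Counts were fitted with edgeR 4.0.16 in R 4.3.3 (TMM scaling, filterByExpr with a minimum count of 10 and total of 15, robust quasi-likelihood) over all 4 groups at once, leaving 4 residual degrees of freedom. This was tested on simulated data. P-values of each of 5 contrasts were adjusted by Benjamini-Hochberg over all 17440 genes tested. CPM are TMM-scaled. A floor of 3 counts over a group was used for a group at 0 and covers counting error only. Totals of 15108793 to 19702638 counts per library set the precision, and genes with few counts have the widest errors.

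Exon lengths, GC content and coordinates came from GENCODE M21 (GRCm38), matched by symbol for 53462 genes (96.7%), with 98.8% of tested genes covered. All members could be named. Pathway genes were named as up to 4 per list and contrast with the smallest p and a mean of at least 1 CPM, together with the TIMPs, Reck, the iRhoms and Furin. Members and lists were chosen with earlier results of these data known. Alternatives were DESeq2 1.42.0, other scaling and filters, no robust estimation, a replicate block, GC and length trends removed, 2 groups alone, and each library left out. The repeats for pathway genes were added after seeing the data.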

Additional observations from a re-analysis of the deposited data

Results flagged for a closer look

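The response to 666-15 differed between ADPKD and WT cells, by edgeR's interaction test at an adjusted p of 0.05, for 10 member genes. The interaction is the log2 response in ADPKD minus that in WT. It was positive for Adamts16 (1.90 ± 0.35, adjusted p = 0.00163), Adamts5 (1.33 ± 0.23, adjusted p = 0.0012) and Adamts1 (0.87 ± 0.14, adjusted p = 0.000686). It was also positive for Adam9 (0.57 ± 0.15, adjusted p = 0.0162), Adam11 (1.79 ± 0.61, adjusted p = 0.0444), Adamtsl3 (3.95 ± 1.18, adjusted p = 0.0262) and Adam7. The fitted interaction of Adam7 (5.57 ± 1.82) depends on the prior count, since its ADPKD vehicle libraries had no counts, and is no bound. The interaction was negative for Adamtsl5 (-2.48 ± 0.53, adjusted p = 0.0043), Adam8 (-1.58 ± 0.30, adjusted p = 0.00347) and Adamtsl4 (-0.98 ± 0.33, adjusted p = 0.045). The calls of Adamts16, Adamts5, Adamts1, Adamtsl5 and Adam8 were kept in every repeat of the analysis, and the other 5 were lost in at least 1.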

How the results depend on the processing

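Of 68 called member values, 38 kept their call in every repeat in which they were tested, and no called value changed direction. A repeat that gave no adjusted p for the gene was not counted. Adam7, for example, fell below the filter of 1 CPM in 2 libraries, so its calls were not tested there. Over 907 repeats 787 calls were kept and 120 lost, 89 of these in 312 repeats that left out 1 library. DESeq2 lost 5 calls, removal of the GC trend 5, removal of the length trend 5, fits on 2 groups alone 5, no filter on low counts 4, scaling by relative log expression 2, and a filter of 1 CPM in 2 libraries 0. Leaving out 1 library gave 2 to 4 members higher and 0 to 2 lower with the inhibitor in WT (4 and 4 with all), and 3 to 6 with a more positive interaction (7 with all). Without a filter on low counts 5 members had a more negative interaction (3 with it). The replicate numbers did not pair the libraries: deviations of same-numbered libraries correlated at -0.0371 to 0.0806 over 11199 genes. With the replicate number as a block, 4 calls were lost and 2 members were lower with the inhibitor in WT in place of 4. Some member values that had not passed the test changed sign with 1 library left out. For genotype on vehicle, these repeats ran from -0.0494 to 1.16 for Adam19, -0.89 to 0.0179 for Adamts4 and -0.41 to 0.0385 for Adamts5. They ran from -0.44 to 0.0494 for Adamts9 with the inhibitor in ADPKD and from -0.11 to 0.0182 for Adamts1 with the inhibitor in WT. The interaction ran from -0.0834 to 0.0414 for Adam10 and from -0.42 to 0.43 for Adamts3. That of Adam10 was also 0.0115 with scaling by relative log expression and 0.0113 with DESeq2. Other values that had not passed the test passed it without 1 library. Among them were Adam19 (1.16) and Adam9 (-0.37) for genotype on vehicle, and Adam22 (-0.89) and Adamts16 (0.79) for genotype on the inhibitor. Adam12 with the inhibitor in ADPKD did so too (0.92). So did the interactions of Adam15 (-1.065, and -0.71 with DESeq2), Adamts2 (-1.88) and Adamts9 (1.25, and 0.89 with DESeq2). The cause of these changes was not tested. With 2 libraries a group, genes of few counts, such as Adam7, Adamtsl3 and Adamts13, were measured least precisely.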
